A study of Drosophila melanogaster with 7 samples.

Results

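The genes described here encode the proteins of the cytosolic ribosome of Drosophila melanogaster. They were taken by symbol: RpL for the large subunit or RpS for the small subunit, followed by a number, by P and a number (the acidic stalk proteins) or by one of the older letter codes, with any copy letter after it. The rule found 87 of the 17208 genes in the count table, 50 for the large and 37 for the small subunit. The rule reads symbols alone. RNA sequencing was done on wing imaginal discs, the larval epithelial sacs that give rise to the wing and part of the thorax, from third-instar larvae. There were 4 libraries labelled ds38k, a mutant allele of dachsous (ds), which encodes a giant cadherin that binds Fat, and 3 libraries labelled WT. The names of the WT libraries carry the stock name w1118 and a tag, csvd111, of unstated meaning, which the ds38k libraries lack. The labels do not say whether the ds38k larvae were homozygous, or whether replicates came from separate animals or dissections, so the p-values reflect only how far these libraries differ, and that spread may be technical.

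Each ribosome carries one copy of nearly every ribosomal protein, and cells keep the messages of these genes at matched, high levels. In flies most of the messages begin with a terminal oligopyrimidine tract, through which TOR signalling regulates their translation. Flies that lack one copy of many of these genes have the Minute phenotype of slow growth and thin bristles, and in the wing disc Minute cells are eliminated when they lie next to wild-type cells. Several of the genes exist in pairs, marked a and b, in which one copy serves most tissues and the other is often used in the germ line.

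Libraries held 25192573 to 31142008 counts in ds38k and 21438650 to 31718949 in WT. The transcript of ds itself had 229, 200.3, 215 and 161 CPM (counts scaled to library size) in the ds38k libraries, against 1547, 1422 and 1701 CPM in the WT libraries. The groups did not overlap, and the log2 fold change was -2.95 ± 0.14 (SE; adjusted p = 4.7e-06, edgeR). The summed level of 6 markers of disc epithelium was 669.9 to 1241 CPM in ds38k and 1673 to 2112 CPM in WT, and none of the 6 was at 0. Of these markers 0 were called higher and 3 lower (nub, vg and ap), or 2 lower with the length correction described below, where vg was not called. Not called were Dr, en and wg, with log2 fold changes of -2.42, -1.115 and -0.20 (adjusted p = 0.0541, 0.0696 and 0.279, edgeR). Dr had 22.55, 17.23, 19.65 and 214.3 CPM in ds38k replicates 1 to 4, against 395.1, 356.5 and 349.5 CPM in WT. For en the values were 80.67, 35.56, 28.48 and 117.8 CPM in ds38k, against 130.6, 152.1 and 144 CPM in WT. In bulk tissue, fewer cells of a type and less RNA per cell cannot be told apart. All 5 fat body markers were higher in ds38k, with sums of 801, 2646, 812 and 51.5 CPM in ds38k replicates 1 to 4 and of 9.65 to 17.6 CPM in WT. The 5 salivary gland markers, of which 2 were called higher, summed to 1152, 91.8, 24.1 and 0.329 CPM in the ds38k libraries and to 11, 0.0285 and 0.104 CPM in the WT libraries. Muscle markers summed to 28.4 to 295 CPM in ds38k and 9.25 to 17.9 CPM in WT, with 4 of 5 called higher. Annotated ribosomal RNA took 13.3% ± 1.56 (SD, n = 4) of the counts in ds38k and 1.13% ± 0.336 (SD, n = 3) in WT.

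Ribosomal protein messages took a several-fold larger part of the counts in ds38k libraries than in WT libraries, across both subunits and all chromosome arms. Their summed counts made up 10.9%, 11.1%, 9.82% and 10.5% of the ds38k libraries, against 2.57%, 2.79% and 2.21% of the WT libraries. The groups were far apart relative to their spread, with 10.6% ± 0.581 in ds38k (SD, n = 4) and 2.53% ± 0.290 in WT (SD, n = 3). The ds38k library with the lowest sums of fat body, salivary gland and muscle markers, replicate 4, had a ribosomal protein share within the range of the other ds38k libraries. Its fat body and muscle sums, 51.5 and 28.4 CPM, still lay above every WT library, and its salivary gland sum lay within the WT range. The part of adhering tissue in the ribosomal protein share was not tested. Without the rRNA counts the shares were 12.2% ± 0.528 in ds38k and 2.55% ± 0.285 in WT. Every ds38k library held a larger share of rRNA than any WT library. Whether the RNA of the groups was prepared alike is not stated, and the part of preparation in these shares was not tested.

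Of the 87 genes, 83 had enough counts to be tested. In edgeR's quasi-likelihood test over 9294 genes, 80 of the 83 were higher in ds38k and 0 were lower at an adjusted p below 0.05. Over all tested genes 34.2% were higher and 30.8% lower, or 42.9% and 24.3% with upper-quartile scaling, so the members' share stood well above the background in one direction. Of the 80 genes, 79 were at least 2-fold higher, a size that 16.5% of all tested genes reached. The median log2 fold change of the 83 genes was 2.44, or 5.43-fold, against 0.07 for all tested genes. For 80 genes every ds38k library lay above every WT library, and for 0 genes below, against 34.4% and 32.0% of all tested genes. The 3 genes that were not called were RpL22, RpL23A and RpS10b.

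**Figure D1:**
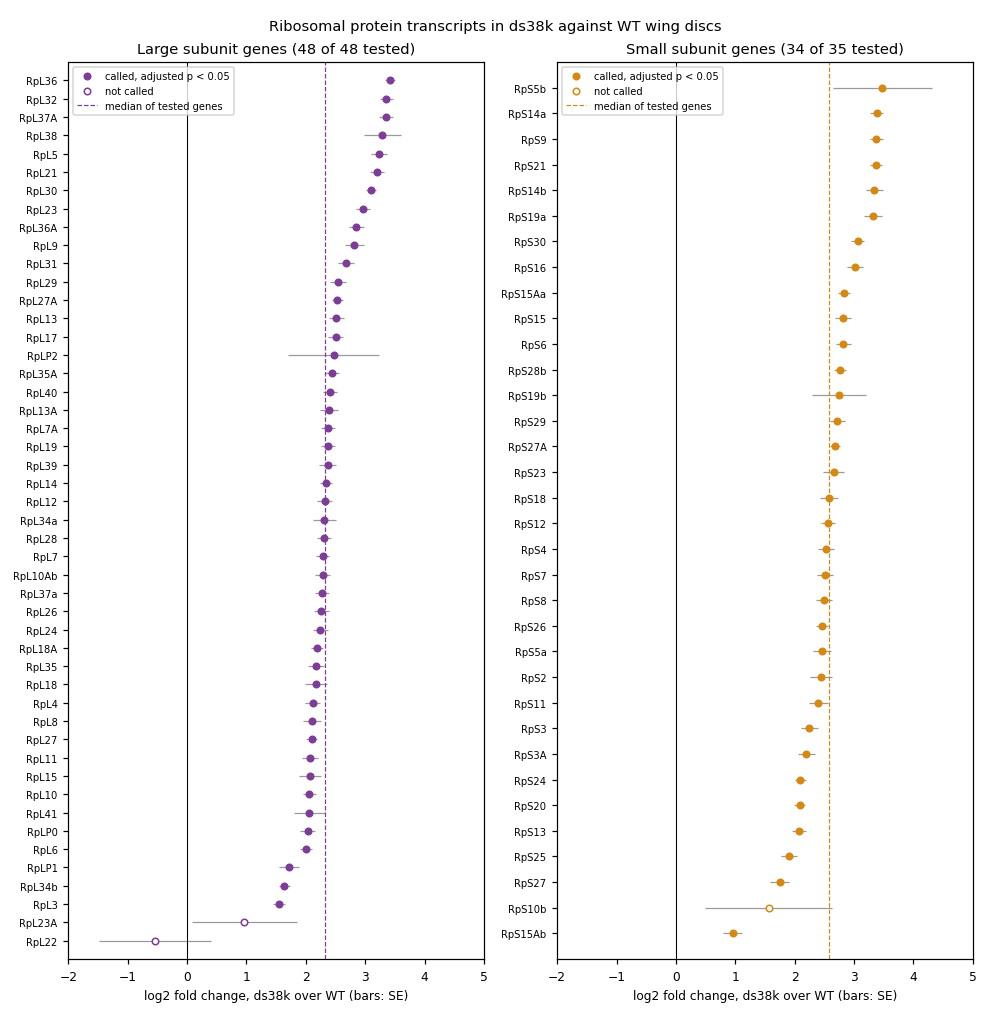
Log2 fold change, ds38k over WT, of the 48 tested large subunit genes (left panel) and 34 of the 35 tested small subunit genes (right panel); points are edgeR estimates, bars are SE, filled points passed an adjusted p of 0.05 and dashed lines mark the median of all tested genes of each subunit. All points but RpL22 lie right of 0, and the bars of RpL22, RpL23A, RpLP2, RpS10b and RpS5b are wide.

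Fold changes in these libraries ran with transcript length, and ribosomal protein messages are short, with a median annotated length of 688 bases over the 87 genes. The rank correlation (Spearman's rho) of log2 fold change with length was -0.60 over 8598 protein-coding genes, which share the same libraries, and -0.30 over the 83 members. With each library's length trend removed, 78 of the 83 members were higher and 0 lower, against 27.6% higher and 19.1% lower among 9224 genes, and their median was 1.78, or 3.43-fold. The same 78 genes were called both ways. The calls of RpLP2 and RpS15Ab were lost: their corrected log2 fold changes were 1.84 ± 0.83 (adjusted p = 0.108, edgeR) and 0.23 ± 0.24 (adjusted p = 0.473, edgeR). The correction removes any real change that runs with length as well.

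Other short genes give a scale for these values. Among 1343 other coding genes with transcripts of at most 1000 bases, 894 were higher and 96 lower, with a median log2 fold change of 0.94, or 0.23 with the length correction. The 73 genes of the mitochondrial ribosome, which translates the few messages of the mitochondrial genome, have a similar median length of 740 bases. Of these 70 were higher and 0 lower, with a median log2 fold change of 1.12, but with the length correction 29 of 72 were higher and the median was 0.36. The cytosolic genes thus had the larger median by either measure. The difference between the lists was not tested.

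**Figure D2:**
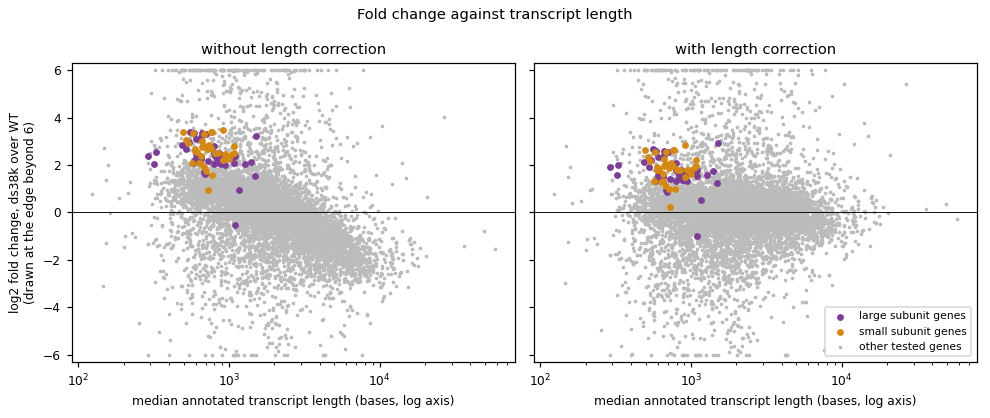
Log2 fold change, ds38k over WT, against median annotated transcript length (log axis) for 9224 tested genes without (left panel) and with (right panel) the length correction; purple and orange points are large and small subunit genes, grey points all other genes, and values beyond 6 are drawn at the edge. The grey cloud slopes down with length in the left panel and is close to level in the right, and nearly all coloured points lie above 0 in both.

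Among the large subunit genes, 46 of 48 tested were higher, with a median log2 fold change of 2.31, or 4.97-fold, and quartiles of 2.10 and 2.53. RpL36 had 931, 1023, 935 and 966 CPM in the ds38k libraries, against 89.0, 95.0 and 87.6 CPM in the WT libraries. It showed the largest rise of this subunit, 3.41 ± 0.08 on the log2 scale (SE; adjusted p = 2.0e-06, edgeR). RpL32, whose message is a common normaliser in fly expression assays, followed at 3.35 ± 0.11 (adjusted p = 2.2e-06, edgeR), together with RpL37A, a different gene from RpL37a, at 3.35 ± 0.12. The 2 proteins that bind 5S rRNA before it joins the large subunit moved by different amounts. RpL5 had 1559, 1756, 1497 and 1525 CPM in ds38k, against 186, 178 and 140.3 CPM in WT, a log2 fold change of 3.24 ± 0.13 (adjusted p = 3.5e-06, edgeR). RpL11 had 556, 590.4, 489 and 540.3 CPM in ds38k, against 130.0, 149 and 108 CPM in WT, a log2 fold change of 2.08 ± 0.13 (adjusted p = 1.6e-05, edgeR). The groups did not overlap for either gene. At the low end of the called genes stood RpL3, a protein of the peptidyl transferase centre, with 3077, 3189, 2767 and 3059 CPM in ds38k and 1061, 1115 and 922 CPM in WT. Its log2 fold change was 1.55 ± 0.10 (adjusted p = 1.8e-05, edgeR).

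The stalk that recruits elongation factors is built from RpLP0, RpLP1 and RpLP2. RpLP0, its base, had 3331, 3412, 3093 and 3931 CPM in ds38k, against 863, 919 and 739 CPM in WT, a log2 fold change of 2.03 ± 0.13 (adjusted p = 1.4e-05, edgeR). RpLP1 had 1865, 1762, 1460 and 1962 CPM in ds38k, against 550.2, 635 and 430.2 CPM in WT, a log2 fold change of 1.71 ± 0.17 (adjusted p = 9.9e-05, edgeR). For both genes all ds38k libraries were high and the groups did not overlap, whereas RpLP2, its other acidic protein, differed between ds38k libraries and is described with the discordant genes below. RpLP1 is also the member nearest to ds, at 2L:419952-420864 in dm6 coordinates, 219 kb from ds and 10.4 kb from expanded (ex), which itself was lower in ds38k. RpL40, which is made as a fusion to ubiquitin, rose by 2.41 ± 0.13 (adjusted p = 6.7e-06, edgeR).

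Among the small subunit genes, 34 of 35 tested were higher, with a median log2 fold change of 2.57, or 5.95-fold, and quartiles of 2.32 and 2.88. RpS9, which lies near the messenger entry channel, had 1702, 1840, 1572 and 1685 CPM in ds38k, against 167, 179 and 145 CPM in WT. RpS21 had 308, 327, 288 and 307 CPM in ds38k, against 31.2, 31.1 and 26.7 CPM in WT. Both had about the same change, 3.38 ± 0.11 for RpS9 and 3.37 ± 0.10 for RpS21 on the log2 scale (adjusted p = 2.2e-06 for each, edgeR), with no overlap of the groups. RpS6, the substrate of S6 kinase, had 3231, 3209, 2803 and 3000 CPM in ds38k, against 447, 487 and 373 CPM in WT, a log2 fold change of 2.81 ± 0.13 (adjusted p = 4.2e-06, edgeR). RpS27A, the ubiquitin fusion of the small subunit, rose by 2.68 ± 0.09 (adjusted p = 2.2e-06, edgeR). Of 2 genes used in studies of Minute cells, RpS12, which flies need for the elimination of such cells, rose by 2.56 ± 0.13 (adjusted p = 5.1e-06, edgeR) and RpS3 by 2.25 ± 0.14 (adjusted p = 1.4e-05, edgeR).

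In fold terms the sum of the small subunit genes differed more between the genotypes than that of the large subunit genes, while in percentage points the large subunit sum differed more, by 4.54 against 3.53. Large subunit genes took 6.28%, 6.36%, 5.63% and 6.37% of the ds38k counts, against 1.63%, 1.79% and 1.43% of the WT counts. Small subunit genes took 4.66%, 4.77%, 4.19% and 4.13% of the ds38k counts, against 0.940%, 1% and 0.781% of the WT counts. The small subunit sums and the ratios below leave out stubarista (sta), a small subunit gene that the symbol rule does not take. Its mean was 6197 CPM in ds38k and 1147 CPM in WT. The ratio of the large to the small sum was lower in every ds38k library, at 1.35, 1.33, 1.34 and 1.54, against 1.74, 1.79 and 1.83 in WT. The means were 1.39 ± 0.1001 in ds38k (SD, n = 4) and 1.79 ± 0.0493 in WT (SD, n = 3), and the groups did not overlap. Without the 4 genes that differed between ds38k libraries, the ratios were 1.32, 1.32, 1.33 and 1.41 in ds38k and 1.55, 1.60 and 1.63 in WT. The ratio of the median levels per kilobase of transcript is less bound to the most abundant genes. Over tested genes, and likewise without these 4, it was 1.03 to 1.19 in ds38k and 1.25 to 1.62 in WT. Among genes with no copy named a or b, 42 of 44 large subunit genes were higher, with a median of 2.35, and 25 of 25 small subunit genes, with a median of 2.52. With the length correction the medians were 1.62 for the large and 1.88 for the small subunit. No p-value is given for these sums and medians over chosen genes.

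**Figure D3:**
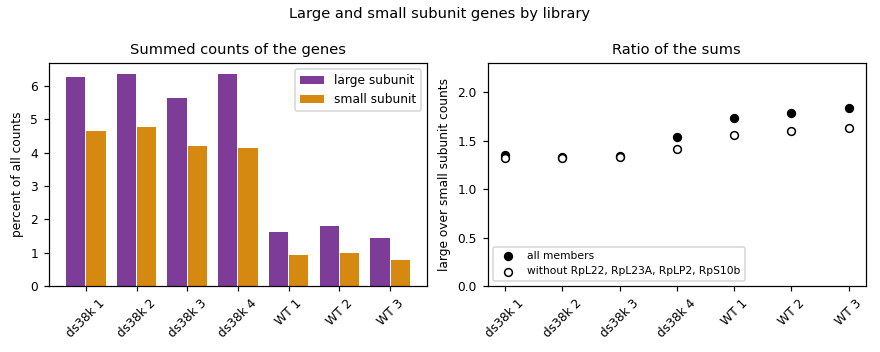
Percent of each library's counts in large and small subunit genes (left panel) and the ratio of the 2 sums (right panel; filled, all genes; open, without RpL22, RpL23A, RpLP2 and RpS10b), for 4 ds38k and 3 WT libraries. The sums hold the genes of the symbol rule, without sta. Both bars are several times taller in every ds38k library, and the ratio is lower there, with ds38k replicate 4 at 1.54 closest to WT.

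Because the whole set moved, a second fit asked which genes changed their share of the ribosomal protein messages, by using the summed member counts as the size of each library. Here a log2 fold change of 0 means an unchanged share. By this measure 29 of 83 genes gained share, 9 lost share and 45 were not called, while over all tested genes 1.99% were higher and 88.5% lower. The values over all genes follow from the larger member sum in ds38k, so they are no yardstick for the members. Shares add up to a fixed total, so a loss by abundant members raises the shares of others. RpL22 and RpL23A held on average 4.14% and 3.42% of member counts in WT, against 0.557% and 1.31% in ds38k. Of the genes that gained, 12 were of the large and 17 of the small subunit. Of those that lost, 6 were large and 3 small. A form of this fit with the length correction called 12 members higher and 14 lower, against 2.71% higher and 86.4% lower among all genes. That form did not scale for library size, so a value of 0 there does not mean an unchanged share. Its counts are thus not comparable with those above, and the part of length in the split was not tested.

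Both forms of the fit called 12 genes higher: RpL5, RpL21, RpL30, RpL32, RpL36, RpL37A, RpS9, RpS14a, RpS14b, RpS19a, RpS21 and RpS30. The length-corrected values below carry library size as well, so they do not measure share alone. The values of RpL5 were 0.94 ± 0.11 without the correction (adjusted p = 5.3e-05, edgeR) and 1.12 with it (adjusted p = 0.000228, edgeR). RpL5 has the longest transcript of the set, 1512 bases. Both forms called 8 genes lower: RpL3, RpL6, RpL22, RpL34b, RpLP1, RpS15Ab, RpS25 and RpS27. RpL3 stood at -0.75 ± 0.09 without the correction (adjusted p = 7.2e-05, edgeR) and -0.59 with it (adjusted p = 0.0114, edgeR). RpLP1 stood at -0.58 ± 0.11 (adjusted p = 0.00119, edgeR) and -0.87 (adjusted p = 0.00317, edgeR). The loss of RpLP0, at -0.27 ± 0.10 (adjusted p = 0.0296, edgeR), was not called with the correction, where its value was -0.24 (adjusted p = 0.229, edgeR).

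The ds38k libraries did not agree on 4 genes, RpL22, RpL23A, RpLP2 and RpS10b, whose highest ds38k library had at least 4 times the CPM of the lowest. This limit was chosen after the values had been seen. In ds38k 4 of 83 members passed it, against 14.8% of all tested genes, and in WT 1 member did, against 6.43%, but in ds38k among the 2184 genes that averaged 100 CPM or more by 82 genes, or 3.75%, the 4 members included. Over the members as a whole the median ratio of highest to lowest library was 1.19 in ds38k and 1.29 in WT.

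RpL22, at X:762560-765130, encodes a large subunit protein that in flies has a testis-enriched relative, RpL22-like. It had 173, 188, 183 and 2080 CPM in ds38k replicates 1 to 4, against 976, 1001 and 881 CPM in the WT libraries. Thus 3 ds38k libraries lay far below WT and replicate 4 lay above it. The log2 fold change over all libraries was -0.54 ± 0.94 (adjusted p = 0.634, edgeR). Without ds38k replicate 4 it was -2.39 ± 0.09 (adjusted p = 2.4e-06, edgeR), a value that leaving out the odd library largely fixes. Without ds38k replicate 1, 2 or 3 it was -0.23, -0.22 and -0.21 (adjusted p = 0.8485, 0.857 and 0.8599, edgeR).

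RpL23A, at 3L:1666288-1668654, encodes a protein at the exit of the peptide tunnel. It had 1105, 403, 313 and 4342 CPM in ds38k, against 778, 864 and 723 CPM in WT. Replicates 2 and 3 lay below WT and replicates 1 and 4 above it. The log2 fold change was 0.97 ± 0.89 (adjusted p = 0.364, edgeR), and -0.38 ± 0.44 without replicate 4 (adjusted p = 0.469, edgeR).

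RpS10b, at X:19598031-19599806, encodes a protein of the small subunit head. It had 390.2, 71.4, 62.8 and 1396 CPM in ds38k, against 189, 174 and 125 CPM in WT. The libraries fell in the same order as for RpL23A, with replicates 2 and 3 below WT and replicates 1 and 4 above it. The log2 fold change was 1.56 ± 1.07 (adjusted p = 0.231, edgeR), and 0.11 ± 0.68 without replicate 4 (adjusted p = 0.896, edgeR).

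RpLP2, the acidic stalk protein, had 618, 242, 188 and 1590 CPM in ds38k, against 118, 128 and 112 CPM in WT. Here every ds38k library was above WT, but by unequal amounts, and the log2 fold change was 2.47 ± 0.76 (adjusted p = 0.0231, edgeR). Without ds38k replicate 4 it was 1.55 ± 0.42 (adjusted p = 0.0132, edgeR). It was not called when any single WT library was left out, with values of 2.41 to 2.51 and adjusted p of 0.0701 to 0.0794.

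Without ds38k replicates 1 and 4 together, which were left out because these genes were high in them, 80 of 83 members were again called higher, against 33.8% of 9521 genes. RpL22 then stood at -2.33, RpL23A at -1.11 and RpS10b at -1.25 on the log2 scale, values that the choice of libraries largely fixes and for which no test is given. Replicates 1 and 4 were not alike in the markers of adhering tissue: replicate 1 had the highest and replicate 4 the lowest salivary gland sum. The part of adhering tissue in these differences was not tested. In 307 tested genes, or 3.30%, replicate 4 was at least 4 times both replicates 2 and 3, and all 4 genes were among them. In 199 of the 307, replicate 1 lay between, as it did for RpL23A, RpLP2 and RpS10b. RpL23A and RpS10b overlap the coding genes CG7974 and CG14220 in the annotation, and whether the counting used strand is not stated.

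**Figure D4:**
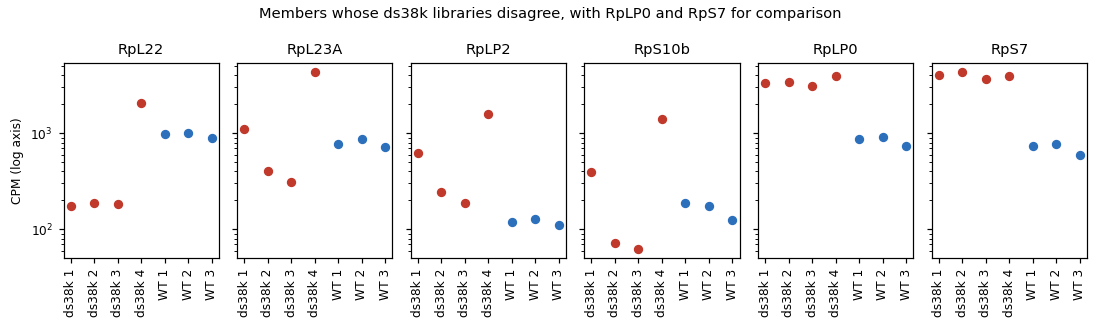
CPM (log axis) of RpL22, RpL23A, RpLP2 and RpS10b in each of the 4 ds38k libraries (red) and 3 WT libraries (blue), with RpLP0 and RpS7 beside them for comparison; each point is 1 library. In the first 4 panels ds38k replicate 4 is the highest library, at 1396 to 4342 CPM, and replicates 2 and 3 lie far below it, while in RpLP0 and RpS7 the ds38k libraries lie close together above WT.

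There were 9 pairs of copies named a and b. In 4 of them one copy was close to silent: RpL10Aa had 0 counts in all 7 libraries, which allows a level of up to 0.0946 to 0.140 CPM depending on the library, RpL37b and RpS28a had 2 counts each over all libraries, and RpS10a, a germ line copy, had 16. Their partners RpL10Ab, RpL37a and RpS28b were higher in ds38k by 2.28, 2.28 and 2.75 on the log2 scale. The other 5 pairs were compared by the share of the less abundant copy, which does not depend on scaling between libraries. The exact two-sided permutation test over the 35 ways to divide 7 libraries into 4 and 3 cannot give a p below 0.0286, and p-values were adjusted over the 5 pairs.

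The pair RpS15Aa and RpS15Ab shifted most. RpS15Ab, an unspliced copy with a single exon, made up 8.53%, 8.15%, 8.30% and 12.1% of the pair in ds38k, against 30.2%, 26.4% and 25.4% in WT. The groups did not overlap, with 9.27% ± 1.88 in ds38k (SD, n = 4) and 27.4% ± 2.56 in WT (SD, n = 3; exact permutation p = 0.0286, adjusted p = 0.0714). The adjusted value did not pass 0.05. RpS15Aa had 997, 1098, 977 and 992 CPM in ds38k, against 130.0, 154 and 144 CPM in WT, whereas RpS15Ab had 93.1, 97.4, 88.5 and 136 CPM in ds38k, against 56.3, 55.2 and 48.9 CPM in WT. The log2 fold changes were 2.83 ± 0.10 for RpS15Aa (adjusted p = 2.2e-06, edgeR) and 0.96 ± 0.16 for RpS15Ab (adjusted p = 0.00166, edgeR). Both copies were thus higher in ds38k, by unequal amounts, and RpS15Ab lost its call with the length correction.

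The pair RpL34a and RpL34b shifted the other way, toward its less abundant copy. RpL34a made up 36.1%, 41.1%, 39.4% and 43.3% of the pair in ds38k, against 24.6%, 32.9% and 30.4% in WT. The means were 40.0% ± 3.02 in ds38k (SD, n = 4) and 29.3% ± 4.23 in WT (SD, n = 3), with no overlap between the groups (exact permutation p = 0.0286, adjusted p = 0.0714). The log2 fold changes were 2.31 ± 0.19 for RpL34a and 1.64 ± 0.10 for RpL34b (adjusted p = 4.8e-05 and 1.1e-05, edgeR).

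In the remaining pairs the shares lay close together. RpS14b, which lies next to its near-identical copy RpS14a on the X chromosome, made up 33.2% ± 1.62 of the pair in ds38k (SD, n = 4) and 33.9% ± 0.865 in WT (SD, n = 3; exact permutation p = 0.571). Reads of these copies are divided between them by a model, so their split is uncertain. Both rose, by 3.38 ± 0.11 for RpS14a and 3.34 ± 0.15 for RpS14b (adjusted p = 2.2e-06 and 3.9e-06, edgeR). RpS19b, a copy used mainly in the germ line, made up 0.167% ± 0.0423 in ds38k (SD, n = 4) and 0.233% ± 0.0953 in WT (SD, n = 3; exact permutation p = 0.371). RpS5b, a copy known from the ovary, had 17, 21, 12 and 30 counts in the ds38k libraries, against 1, 5 and 0 counts in the WT libraries. Its log2 fold change, 3.48 ± 0.84 (adjusted p = 0.00817, edgeR), was the largest of the set but rests on few counts: it was 4.99 without WT replicate 2 and 2.94 without WT replicate 3. Its partner RpS5a rose by 2.46 ± 0.15 (adjusted p = 1.1e-05, edgeR). The share of RpS5b in its pair was 0.0277% ± 0.00978 in ds38k (SD, n = 4) and 0.0109% ± 0.0127 in WT (SD, n = 3; exact permutation p = 0.143). Of 7 germ line markers 2 had enough counts to be tested: ovo, at 49.1 to 114 CPM in ds38k and 235 to 352 CPM in WT, was lower but not called with the length correction, and AGO3 was not called either way. As ovo lay far above all other germ line markers, it was not read as a measure of germ line content. The other 5, vas, nos, bam, aub and zpg, had at most 2.05 CPM in any ds38k library and at most 0.512 CPM in any WT library. Of these, bam was higher in every ds38k library, at 0.337, 0.126, 0.699 and 2.05 CPM, than in WT, at 0, 0.0571 and 0.0346 CPM. The same held for vas, at 0.2244, 0.1261, 0.411 and 0.1097 CPM against 0.04264, 0.02854 and 0.1038 CPM. For nos and aub the groups overlapped, and zpg was at 0 in every ds38k library. Many of these values lie near the limit set by a count of 0, and none of these genes was tested.

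**Figure D5:**
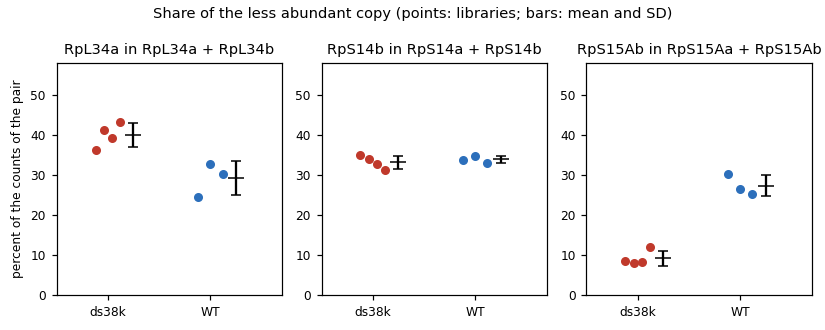
Share of the less abundant copy in the counts of 3 pairs, as percent, in 4 ds38k libraries (left of each panel, red) and 3 WT libraries (right, blue); points are libraries, and crossbars mark mean and SD. RpL34a sits higher in ds38k and RpS15Ab lower, both without overlap, and the RpS14b groups overlap.

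The levels of single genes were compared per kilobase of transcript, in CPM per kilobase. The highest in ds38k were RpS2 with 5369 ± 505, RpS7 with 4933 ± 337 and RpL13A with 4406 ± 381 CPM per kilobase (SD, n = 4). In WT these genes had 989 ± 224, 865 ± 121 and 842 ± 153 CPM per kilobase (SD, n = 3), and RpL22 stood among them with 866 ± 57.7 CPM per kilobase. The WT order of RpL22, RpS7 and RpL13A does not exceed their spread. At the low end, apart from the germ line copies RpS5b and RpS19b, RpL38 had 454 ± 94.3 CPM per kilobase in ds38k and 46.5 ± 16.1 in WT, RpS21 had 622 ± 32.2 and 60.0 ± 5.18, and RpS15Ab had 143 ± 30.3 and 73.9 ± 5.52 (SD, n = 4 and n = 3). The order of the genes was largely kept: Spearman's rho between the ds38k and WT levels was 0.81 over 83 members, or 0.89 without the 4 discordant genes. Genes with a low WT level had the larger fold changes, with a rho of -0.52, although the 2 measures share the WT values. Levels and fold changes of different genes come from the same libraries, so these values are descriptions only.

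Other properties of the genes went with the fold change weakly or not at all. Spearman's rho with the length of the annotated 5′ untranslated region, whose median was 68 bases, was 0.22, and with the number of exons 0.05. Within the annotated bounds of 28 members lie 74 snoRNA genes on the same strand, 14 of them in RpS5a and 7 in RpS7. SnoRNAs guide the modification of ribosomal RNA. The median log2 fold change was 2.43 for these 28 genes and 2.44 for the 55 tested genes without one. By chromosome arm the medians were 2.63 on X, 2.53 on 2L, 2.43 on 2R, 2.31 on 3R, 2.27 on 3L and 2.20 for the single gene on chromosome 4, and 2L, the arm that carries ds, lay within the range of the others. On 2L 17 of 17 tested members were called higher. Coding genes overlap 21 members and antisense noncoding genes 5, and counts of these are uncertain where strand was not used.

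A list of ribosomal proteins and ribosome-associated genes that the symbol rule leaves out moved mostly in the same direction as the members. Of these 10 genes, 9 were tested, 7 were higher and 1 was lower. The median log2 fold change was 1.58, or 0.93 with the length correction, where 7 were higher and 0 lower. Among all tested genes 34.2% were higher and 30.8% lower, or 27.6% and 19.1% with the correction. The small subunit protein gene stubarista (sta) had 6106, 6534, 5410 and 6739 CPM in ds38k, against 1219, 1214 and 1008 CPM in WT, a log2 fold change of 2.43 ± 0.13 (adjusted p = 6.7e-06, edgeR). Rack1, a scaffold on the small subunit, rose by 2.20 ± 0.13 (adjusted p = 1.0e-05, edgeR). The assembly factor eIF6, which keeps subunits apart, stood at 0.24 ± 0.21 (adjusted p = 0.355, edgeR), and RpI135, a subunit of RNA polymerase I, fell by 0.56 ± 0.08 (adjusted p = 0.000899, edgeR), or stood at 0.22 with the length correction (adjusted p = 0.0601, edgeR).

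Of 9 elongation factors and related genes whose messages belong to the same translationally controlled class, 8 were higher and 1 lower, with a median log2 fold change of 1.46. Among all tested genes 34.2% were higher and 30.8% lower. With the length correction 8 were higher and 0 lower, against 27.6% and 19.1% of all genes, and the median was 1.06. The main elongation factor gene eEF1alpha1 had 28545, 28577, 28350 and 31891 CPM in ds38k, against 9781, 11066 and 8450 CPM in WT, a log2 fold change of 1.59 ± 0.13 (adjusted p = 4.0e-05, edgeR). The exception was pAbp, the poly(A)-binding protein, with 1060, 480.0, 638 and 4930 CPM in ds38k, against 8757, 8014 and 10267 CPM in WT, a log2 fold change of -2.34 ± 0.80 (adjusted p = 0.0338, edgeR). As in the discordant members, replicate 4 was its highest ds38k library. The call of pAbp was lost with the length correction (-1.84, adjusted p = 0.0812, edgeR).

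Of 14 regulators of ribosomal protein genes found in the table, 3 were higher and 5 lower, with a median log2 fold change of -0.33. These shares, 21.4% higher and 35.7% lower, lie near those of all tested genes, 34.2% and 30.8%. With the length correction 5 were higher and 3 lower, and the median was 0.06. M1BP, a promoter-binding factor of these genes in flies, rose by 0.35 ± 0.09 (adjusted p = 0.0136, edgeR) but stood at 0.04 with the correction (adjusted p = 0.720, edgeR). The messages of Tor and raptor, which form the TOR complex, fell by 1.96 ± 0.11 and 1.94 ± 0.09 on the log2 scale (adjusted p = 9.2e-06 and 5.0e-06, edgeR). Both are long, and with the correction their values were -0.32 and -0.38 (adjusted p = 0.0476 and 0.0329, edgeR). Myc, an activator of ribosome production, had a log2 fold change of -0.67 ± 0.28 (adjusted p = 0.0665, edgeR), and 0.84 with the correction (adjusted p = 0.0236, edgeR). Xrp1, which rises in Minute cells of the wing disc, stood at -0.75 ± 0.30 (adjusted p = 0.0605, edgeR), or -0.27 with the correction (adjusted p = 0.478, edgeR).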

How the data were processed

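The deposited values are expected counts per gene, with no scaling across libraries; the authors made them from trimmed reads with Salmon 1.80 (version as written) on build dm6, per the submitters' processing notes, which also list FastQC 0.10, Trimmomatic 0.33 and edgeR. How strand was handled, which RNA was selected and any batches are not stated there. Salmon assigns reads shared by similar transcripts by a model, so near-identical copies are uncertain. PCR duplicates cannot be seen, and limits from a count of 0 cover counting error alone.

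Values were rounded to whole counts before testing. Replicates of 1 group differed by more than sampling noise (chi-square per degree of freedom 37.4 to 240), so each library counted as 1 sample. The test was edgeR 4.0.16's quasi-likelihood F-test of genotype (R 4.3.3; filterByExpr, minimum count 10; TMM factors; Benjamini-Hochberg over all tested genes, threshold 0.05), and CPM values, marker sums included, use the TMM factors, while percent shares use total counts. Other fits added a length offset per library (natural spline, 5 degrees of freedom, on log2 median transcript length), or took the summed member counts as library size. The fit that joined these steps left out library size, so its values mix share with library size. DESeq2 1.42.0 was an alternative. The genotype fit, its length-corrected form and the fit on the member sum were tested on simulated counts. The length-corrected fit on the member sum was not. Annotation was BDGP6.54, in dm6 coordinates, where 87 of 87 members were found, 2 of them under another symbol.

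Genes were named by a rule: both copies of each pair; the 5 largest and 5 smallest log2 fold changes; members not called, or whose call differed with the length correction; the 5 highest and 5 lowest WT levels per kilobase; the stalk, 5S, ubiquitin fusion and Minute-related genes; and members nearest to ds. Genes that gained or lost share, RpL32, RpL37A, RpL6, RpL21, RpL30, RpS25, RpS27, RpS30 and the genes outside the rule that are named were picked after their values were seen. Members and lists were chosen with earlier results of these data known. Larp and max were not found in the table under those spellings. The single values of 1 member named by the rule are not reported here. No sequences were used here.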

Additional observations from a re-analysis of the deposited data

Results flagged for a closer look

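Among 92 values checked in the 4 ds38k libraries (CPM of tested members, copy shares and subunit sums), 7 had 1 library set apart from the other 3 by most of the range; chance alone would do this in about 1 of 20 such groups. The number given is the gap between that library and its nearest neighbour, as a share of the range. RpL22 had a gap of 0.992, with replicate 4 at 2080 CPM. The ratio of large to small subunit counts had a gap of 0.931, with replicate 4 at 1.54. The share of RpS15Ab in its pair had a gap of 0.902, with replicate 4 at 12.1%. RpL37a had a gap of 0.924, with replicate 3 at 1277 CPM, and the summed share of large subunit genes had a gap of 0.874, with replicate 3 at 5.63%. RpL38 had a gap of 0.834, with replicate 1 at 222 CPM. RpS15Aa had a gap of 0.831, with replicate 2 at 1098 CPM. Replicate 4 was the odd library in 3 of the 7 values.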

How the results depend on the processing

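The count of members was again 80 higher and 0 lower with RLE factors, upper-quartile factors, rRNA genes removed, no low-count filter and DESeq2, which gave no adjusted p for RpL22. Upper-quartile factors moved the median of all genes to 0.33, against 0.07, and 63.9% of called genes were then higher, against 52.7%; the member median was 2.69. Leaving out 1 library at a time gave 79 to 81 called members and 5222 to 6531 called genes, and 32 to 41 members relative to the ribosomal protein total. The length correction moved the medians to 1.62 for the large and 1.88 for the small subunit. Without rRNA in the total, the ds38k minus WT difference was 5.47 percentage points for large and 4.20 for small subunit genes. RpL23A ran from -0.38 without ds38k replicate 4 to 1.32 without ds38k replicate 3. The first is also the fit of replicates 1 to 3 of each genotype without a block. Without ds38k replicates 1 and 4, RpL23A was at -1.11 and RpS10b at -1.25. With replicate number as a block on replicates 1 to 3, RpL23A was at -0.61 and RpS10b at -0.43, and 3364 genes were higher and 3180 lower, against 3341 and 3190 without the block. Deviations of libraries with the same number correlated by 0.137, 0.003 and 0.098, of which 2 fall under the limit of 0.1 set for pairing, and not every library correlated best with its own number, so the numbers were not taken to pair the libraries. The fits without replicates 1 and 4 and without a block were chosen after seeing the data. Depth limits the copies with few counts, RpS5b above all.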
